A study of Homo sapiens with 30 samples.

Results

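Rh30 is an established alveolar rhabdomyosarcoma line driven by PAX3-FOXO1, a fusion transcription factor. RNA sequencing of 10 samples, out of 30 in the series, compared 4 clones of Rh30 in which PAX3-FOXO1 carries an FKBP degradation tag (clones 4, 10, 11 and 12) with untagged parental Rh30. Each clone and the parental line had 2 libraries, all labelled as DMSO-treated, so the tagged protein had not been exposed to the degrader dTAG. Each clone is 1 clone, and the parental line is the only untagged group, so effects of the tag, of cloning and of any culture or library batch that separates clones from parental cells cannot be told apart here. Separate cultures are not stated for the 2 libraries of any group, and the p-values then reflect library spread that may be technical. Library totals were 17746684 to 24560297 counts in the clones and 23773431 and 26834005 counts in the parental cells, over 23261 genes, of which 14175 passed the filter on low counts. The remaining 20 samples of the series are a dTAG time course of a PAX3-FOXO1-FKBP line and a FOXO1-FKBP line.

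Alveolar rhabdomyosarcoma cells are muscle-lineage cells that express the myogenic factor MYOD1 and stop short of full differentiation. The fusion joins the DNA-binding part of PAX3 to the activation domain of FOXO1, and it binds enhancers together with the myogenic factors. Terminal muscle differentiation brings on the myosins, actins and troponins of the sarcomere, while dividing cells use genes of DNA replication and of mitosis.

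A change was called shared when the average of the 4 clone means, and each of the 4 clones alone, differed from the parental cells with the same sign (edgeR quasi-likelihood test, Benjamini-Hochberg adjusted p under 0.05). This held for 2536 genes. Of the 14175 genes tested, 1190 were higher in every clone, which is 8.4% of those tested, and 1346 were lower, which is 9.5%. The 4 clone tests share the 2 parental libraries, so they are not independent of each other. The average alone passed for 4076 genes upward (28.8%) and 3850 downward (27.2%), and it passed with 1 sign in all 4 clones for 3368 (23.8%) and 3266 (23%). All 8 clone libraries lay above both parental libraries for 2749 genes (19.4%) and below both for 2781 (19.6%). Scaled by library totals, which puts the median of all genes at -0.14 on the log2 scale against 0.04 with TMM scaling, 594 genes were shared upward and 1853 downward. The share of higher genes among the shared was then 24.3%, against 46.9% with TMM scaling and 42.5% in the fit corrected for GC content and transcript length. Without the first parental library 431 genes were shared upward and 676 downward, and without the second 422 and 665. Leaving out the second clone 10 library gave 737 upward, and leaving out either clone 12 library 664 or 728, with counts downward within 1.5 times of the full set.

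The median shared higher gene changed by 0.85 on the log2 scale (10th to 90th percentile 0.60 to 1.36) and the median shared lower gene by -1.16 (-1.95 to -0.73), against 0.04 over all genes tested. A change of at least 2-fold in every clone was reached by 129 of the higher genes and 465 of the lower. The first genes inside the threshold, BATF3, SWSAP1 and PSMB4 upward, had a largest adjusted p of 0.0498 over their 5 tests, while PCIF1, TMEM8C and LEMD2 lay just outside at 0.05. Downward, ZSCAN12 and KIAA1143 were just inside at 0.0499, and CCNG2 (0.0501) and ATAD2B (0.0502) just outside.

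GC content separated the shared genes. Shared higher genes had a median transcript GC content of 59.2%, shared lower genes 41.2%, and all tested genes 50.2%. Of the shared higher genes 1108 lay above the median of all genes, and of the shared lower genes 1182 lay below it. In the lowest of 10 equal bins of GC content (29.6% to 40.3%), 1 of 1354 was higher in every clone and 526 were lower, and the median change was -0.77 on the log2 scale. In the highest bin (62.3% to 83.9%), 305 of 1354 were higher and 14 were lower, with a median of 0.57. Each clone showed the slope: from the lowest to the highest bin, the median change ran from -0.73 to 0.47 in clone 4, from -0.78 to 0.56 in clone 10, from -0.82 to 0.66 in clone 11 and from -0.84 to 0.58 in clone 12.

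**Figure D1:**
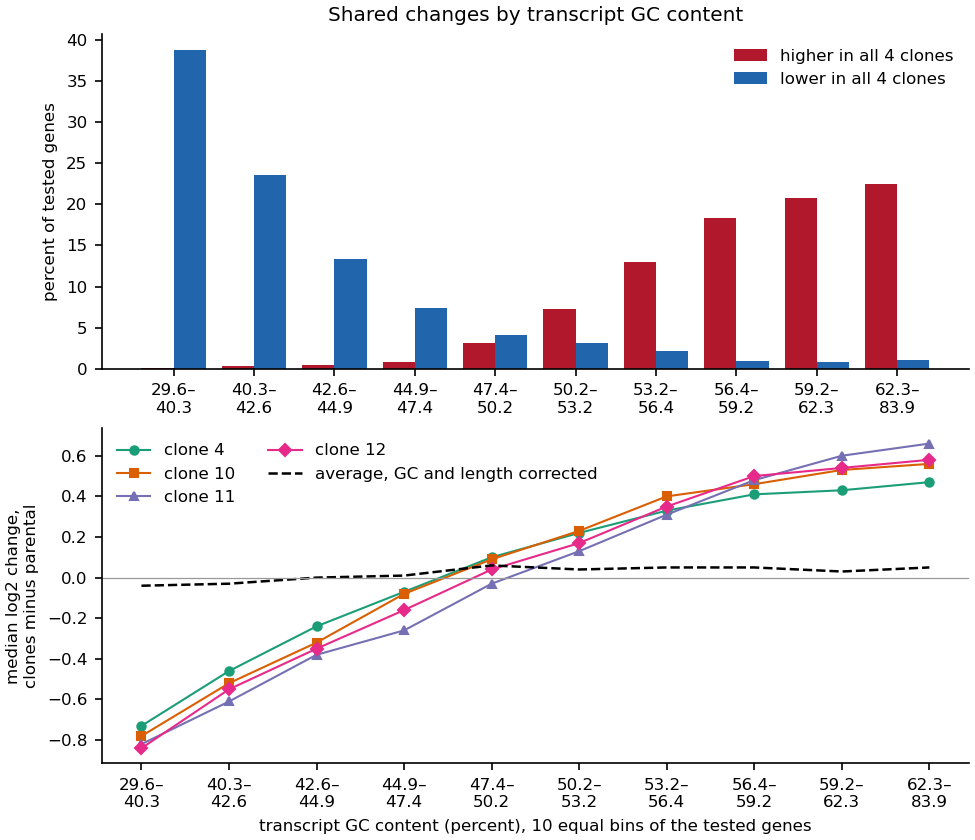
The upper panel plots the percent of tested genes that were higher (red) or lower (blue) in all 4 clones, in 10 bins of transcript GC content. The lower panel plots the median log2 change of each clone against parental cells in the same bins, with the corrected average dashed, and all 4 clones climb from medians of -0.84 to -0.73 in the lowest bin to 0.47 to 0.66 in the highest.

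Across 13532 genes with a GC value, the average change followed GC content with Spearman's rho = 0.588, and single clones with 0.445 to 0.561. Genes are not independent replicates, and these correlations share the parental libraries. Set against the mean of all 10 libraries, the level in a library followed GC content with rho between -0.0101 and 0.441 in the clone libraries and at -0.586 and -0.591 in the parental libraries. The clones make up most of that mean, which places the parental libraries farther from it. GC content also moved between libraries of 1 clone: the difference between the clone 11 libraries followed it with rho = 0.557, and that between the parental libraries with rho = -0.0146. The median absolute log2 difference between the libraries of a group was 0.17 to 0.30 in the clones and 0.07 in the parental cells. Whether the GC trend arose in the cells or in the libraries was not tested.

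**Figure D2:**
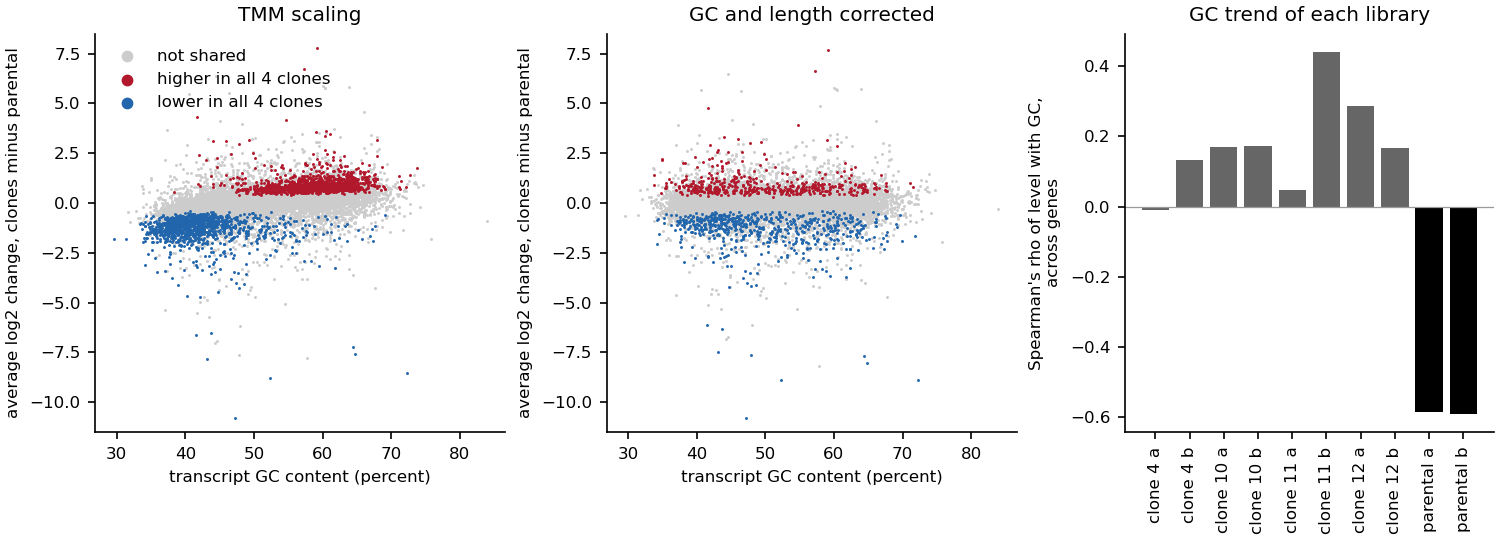
Each point in the left and middle panels is a gene, with its transcript GC content (percent) against its average log2 change, clones minus parental, before and after the GC and length correction. The right panel gives Spearman's rho between the level and GC content across genes in each library, from -0.0101 to 0.441 in the 8 clone libraries and -0.586 and -0.591 in the parental libraries.

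A correction that fits a smooth curve of GC content and transcript length in every library left 456 genes shared upward (3.37% of 13532) and 616 downward (4.55%), and brought rho to 0.0372. Of the genes shared before, 262 of 1190 higher ones (22%) and 456 of 1346 lower ones (33.9%) passed in both fits, and 0 changed sign between the 2 fits as a shared gene. The average alone still passed for 889 of the higher and 971 of the lower genes. The genes that passed in both fits had a median GC content of 55.4% when higher and 45.2% when lower. By the longest transcript of each gene, which the correction did not use, these medians were 54.8% and 40.7%, against 48.6% over all tested genes. Median lengths of the longest transcript were 2730 nucleotides when higher and 4500 when lower, against 3670 over all tested genes. By that measure a difference in GC content and length thus remained. In the lowest GC bin the corrected fit held 60 higher and 71 lower genes, and in the highest 45 and 59. At least 2-fold in every clone in both fits were 30 higher and 148 lower genes. A curve fitted to GC content removes a true change of GC-rich genes as well as a technical one, so the corrected counts and the uncorrected ones are given side by side.

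Reads of PAX3 and FOXO1 come from the normal genes and from the fusion, which gene counts do not separate. PAX3 had 38.8 and 15.8 CPM (counts relative to library size) for clone 4, 27.4 and 22.3 for clone 10, 16.4 and 13.7 for clone 11, 15.1 and 16.0 for clone 12, and 21.3 and 20.4 in parental cells. The clones lay on both sides of the parental level, and the average change was -0.06 ± 0.25 (log2, SE; edgeR adjusted p = 0.846). FOXO1 had 59.1 and 41.8 CPM for clone 4, 50.7 and 35.3 for clone 10, 43.8 and 28.3 for clone 11, 30.2 and 31.1 for clone 12, against 74.9 and 76.3 in parental cells. It was lower in all 8 clone libraries, and its average fell by 0.94 ± 0.17 (log2, SE; edgeR adjusted p = 0.000951), but the clone 4 test alone did not pass, so it is not among the shared genes. FKBP1A, the gene of the protein that the FKBP tag was made from, changed by 0.03 ± 0.10 on the log2 scale (edgeR adjusted p = 0.816). None of these levels checks the tag itself.

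Muscle genes were among the 12 leading shared increases. TRIM54, which encodes a ubiquitin ligase of the sarcomere, had 4.16 and 4.93 CPM for clone 4, 2.36 and 3.13 for clone 10, 4.94 and 8.22 for clone 11, 4.05 and 4.70 for clone 12, against 0.227 and 0.471 in parental cells. Its average change was 3.59 ± 0.36 (log2, SE; edgeR adjusted p = 3.49e-05), and 3.14 after GC and length correction. MYH8, the perinatal myosin heavy chain, had 11.9 CPM in both clone 4 libraries, 9.01 and 5.74 for clone 10, 7.63 and 12 for clone 11, 4.91 and 8.48 for clone 12, against 1.21 and 1.04 in parental cells. Its average change was 2.95 ± 0.32 (log2, SE; edgeR adjusted p = 5.11e-05). MLIP, a lamin-interacting protein of muscle, had 9.43 and 9.86 CPM for clone 4, 3.41 and 4.75 for clone 10, 2.99 and 2.41 for clone 11, 4.62 and 4.51 for clone 12, against 0.493 and 0.572 in parental cells. None of the clone libraries overlapped the parental ones for these 3 genes, which their choice by the largest smallest clone change favours. All 8 clone libraries lay above both parental libraries for 19.4% of all genes tested.

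Reference promoters of TRIM54 (chr2:27282179-27282478, plus strand) and MLIP (chr6:54018720-54019019, plus strand) are shown because both hold CAGCTG, an E-box form bound by myogenic factors, given in capitals. The windows run from 250 bases before to 50 after the RefSeq start (GRCh38.p14).
TRIM54: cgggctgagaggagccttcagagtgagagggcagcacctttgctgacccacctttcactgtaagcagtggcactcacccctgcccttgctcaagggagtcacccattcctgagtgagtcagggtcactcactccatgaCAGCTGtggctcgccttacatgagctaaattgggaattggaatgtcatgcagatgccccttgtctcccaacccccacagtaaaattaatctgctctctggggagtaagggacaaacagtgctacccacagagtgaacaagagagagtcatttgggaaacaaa
MLIP: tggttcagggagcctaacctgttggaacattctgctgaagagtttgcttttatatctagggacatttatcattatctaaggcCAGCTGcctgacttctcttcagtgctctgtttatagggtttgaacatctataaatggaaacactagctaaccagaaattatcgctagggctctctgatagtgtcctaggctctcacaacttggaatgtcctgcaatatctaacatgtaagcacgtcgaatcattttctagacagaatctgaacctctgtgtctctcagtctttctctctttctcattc
CAGCTG reads the same on both strands and was not searched together with another motif. It was present in a window of 17 of 34 muscle genes with a promoter entry (50%), of 211 of 960 shared higher genes (22%), of 230 of 1055 shared lower genes (21.8%) and of 2548 of 10944 tested genes (23.3%). Of all 35116 windows, 17.9% held it. A match describes these letters and says nothing of what binds there.

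Of 49 measured muscle contractile and differentiation genes, 11 were shared higher (22.4%, against 8.4% of all genes) and 0 shared lower, and the average passed upward for 29, where it passed for 28.8% of all genes, and downward for 1. The list's median change was 0.75 on the log2 scale, against 0.04 over all genes, and 0.53 after correction. In the corrected fit 5 were shared higher, against 3.37% of all genes. DES, the muscle intermediate filament desmin, had 666 and 819 CPM for clone 4, 1460 and 1620 for clone 10, 933 and 1090 for clone 11, 1430 and 1270 for clone 12, against 439 and 449 in parental cells. Its average change was 1.33 ± 0.13 (log2, SE; edgeR adjusted p = 3.08e-05), and 0.87 after correction, where it stayed shared. CDH15 (M-cadherin) rose by 1.05 ± 0.11 and CHRNB1, the muscle acetylcholine receptor beta subunit, by 0.91 ± 0.11 (log2, SE; edgeR adjusted p = 5.34e-05 and 7.62e-05), and neither stayed shared after correction (0.56 and 0.60). In bulk RNA, more cells of a differentiated type and more RNA of these genes per cell cannot be told apart.

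Among tested genes with a GC value, the myosin heavy chain genes MYH13, MYH8 and MYH2 came next to each other on chromosome 17. They formed a run of shared higher genes after correction, and genes that were not tested may lie between them. MYH13 changed by 1.55, 2.12, 1.44 and 1.52 in clones 4, 10, 11 and 12 on the log2 scale. MYH2, a fast adult myosin heavy chain, changed by 2.58, 3.01, 1.00 and 0.95 and was not shared before correction. Not every member moved: TTN (titin), NEB (nebulin) and RYR1, the calcium release channel, had average changes of 0.26, 0.20 and 0.09 (edgeR adjusted p = 0.458, 0.351 and 0.762). MYH7 ran from -1.67 in clone 11 to 2.74 in clone 10. Apart from MYH8, the genes of this paragraph were picked after their values were seen. Myosin genes are near-identical in parts, and the counting of reads that fit several genes is not described in the labels.

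Of 9 myogenic transcription factors, MYOD1 was shared higher and SIX4 shared lower (11.1% each, against 8.4% and 9.5% of all genes). MYOD1 had 2560 and 3200 CPM for clone 4, 2380 and 2480 for clone 10, 2080 and 2400 for clone 11, 2080 and 1910 for clone 12, against 1200 and 1190 in parental cells. It rose by 0.99 ± 0.12 (log2, SE; edgeR adjusted p = 0.000101), and its corrected change of 0.51 was not shared. SIX4, a homeobox factor of muscle precursors, fell by 0.86 ± 0.13 on the log2 scale (edgeR adjusted p = 0.000308). All 13 rhabdomyosarcoma markers were at 1 CPM or more in every library. Their summed level was 6340 to 7830 CPM in the clones and 4170 to 4180 CPM in parental cells. MYOD1, DES and CDH15 are the 3 of them that were shared higher (23.1%). By the average 6 passed upward and 3 downward (FOXO1, TFAP2B and MYCN), and the median of the 13 was 0.26 before correction and -0.31 after it.

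Published PAX3-FOXO1 targets had a median change of -0.29 on the log2 scale over 36 genes, and -0.43 after correction. Of them 1 was shared higher (MYOD1; 2.78%, against 8.4% of all genes) and 3 shared lower (8.33%, near the 9.5% of all genes). After correction 2 were shared lower, against 4.55% of all genes in that fit. PIPOX, a peroxisomal oxidase, had 50.6 and 52.2 CPM for clone 4, 14.9 in both clone 10 libraries, 57.1 and 97.7 for clone 11, 47.5 and 57.0 for clone 12, against 113 and 117 in parental cells. It fell by 1.45 ± 0.15 on the log2 scale (edgeR adjusted p = 4.36e-05) and by 1.70 after correction. POU4F1, a sensory neuron factor, fell by 0.74 ± 0.11 (edgeR adjusted p = 0.000294) and by 0.80 after correction. DCX, a neuronal microtubule protein, fell by 1.05 ± 0.19 (edgeR adjusted p = 0.000901) and was not shared after correction. The target list was collected from general knowledge of the fusion.

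In the separate time course of a PAX3-FOXO1-FKBP line, which shares no library with the clone table, the same muscle list was higher after the fusion protein had been targeted with dTAG. Its 48 measured genes had a median log2 change of 2.46 at 72 h against DMSO, with 38 at least 2-fold higher and 0 lower, and in the FOXO1-FKBP line a median of 0.10 over 46 genes with 0 at least 2-fold higher. Each time-course column is the authors' pool of 2 samples and carries no replicate error. TRIM54 had 678 normalised counts after 72 h of dTAG and 32.1 in DMSO in the PAX3-FOXO1-FKBP line, and 78.8 and 60.8 in the FOXO1-FKBP line. MYH8 had 2370 and 206 in the first line, and 546 and 647 in the FOXO1-FKBP line. MYOD1, higher in the clones, had 28600 at 72 h and 46000 in DMSO in the PAX3-FOXO1-FKBP line. POU4F1, lower in the clones, had 764 at 72 h and 6920 in DMSO in that line, and PIPOX 353 and 941. DCX, the other target lower in the clones, was higher in that line, with 8860 at 72 h and 4730 in DMSO.

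The shared genes were also followed as sets in the time course. The shared higher genes had a median log2 change of 0.08 at 72 h over 1157 genes, the shared lower genes -0.10 over 1269, and all genes -0.02 over 12329. At 72 h the size rule of 2-fold upward was met by 41 of the shared higher genes (3.54%), against 3.35% of all 12329 genes, and downward by 5 (0.432%), against 3.1%. Among the shared lower genes it was met upward by 8 (0.63%) and downward by 19 (1.5%), both below the shares of all genes. These shares were not tested. Of the 12 genes that led the increases, SLC7A8 had 58.0 normalised counts at 72 h and 246 in DMSO, and OSGIN1 216 and 308. MGP had 353 and 133.

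The other leading increases belonged to varied functions. MGP, an inhibitor of tissue calcification, had 159 and 178 CPM for clone 4, 8.64 and 12.6 for clone 10, 19.8 and 11.2 for clone 11, 34.1 and 5.28 for clone 12, against 1.4 and 1.31 in parental cells. Its average change was 4.32 ± 0.66 (log2, SE; edgeR adjusted p = 0.000319), with the clone 4 libraries far above the rest. ARHGDIB, a gene most abundant in blood cells, had 82.4 and 106 CPM for clone 4, 8.55 and 17.0 for clone 10, 7.43 and 10.3 for clone 11, 11 and 7.75 for clone 12, against 1.93 and 2.02 in parental cells. The 17 blood cell markers summed to 24.5 to 113 CPM in the clones and 22.3 to 25.4 CPM in parental cells, mostly from CORO1A. MS4A1 and FCGR3A had 0 counts in all 10 libraries, and PTPRC was at 0.0536 CPM or less. CD79B had 4.91 and 5.89 CPM for clone 4, 1.22 and 1.67 for clone 10, 4.02 and 9.08 for clone 11. It had 1.54 and 2.18 for clone 12, against 1.36 and 1.78 in parental cells. Of 7 blood markers tested, 0 were shared. By the average 2 passed upward and 0 downward, where 28.8% and 27.2% of all genes passed.

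SLC7A8, a neutral amino acid transporter, had 10.4 and 17.7 CPM for clone 10, 3.65 and 4.31 for clone 12, 0.752 and 0.911 for clone 4, 0.664 and 0.618 for clone 11, against 0.152 and 0.101 in parental cells. IGFBP4, which binds insulin-like growth factors, had 34.9 and 42.6 CPM for clone 4, 56.9 and 72.8 for clone 10, 60.9 and 91.9 for clone 11, 37.9 and 44.0 for clone 12, against 11.8 and 11.6 in parental cells. OSGIN1, a gene induced by oxidative stress, rose by 2.38 ± 0.25 with changes of 2.12 to 2.65 over the clones (edgeR adjusted p = 4.99e-05). CASP4, an inflammatory caspase, changed by 4, 4.72, 1.88 and 1.74 in clones 4, 10, 11 and 12 on the log2 scale. PCDH10, a protocadherin, changed by 3.07, 2.31, 1.94 and 1.75. SDSL, a serine dehydratase-like enzyme, had 42.6 CPM in both clone 12 libraries, against 4.09 and 4.61 in parental cells. KCNJ12, an inward rectifier potassium channel, had 12 and 0 counts in the parental libraries, and it was the only 1 of these 12 genes that was not shared after correction.

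**Figure D3:**
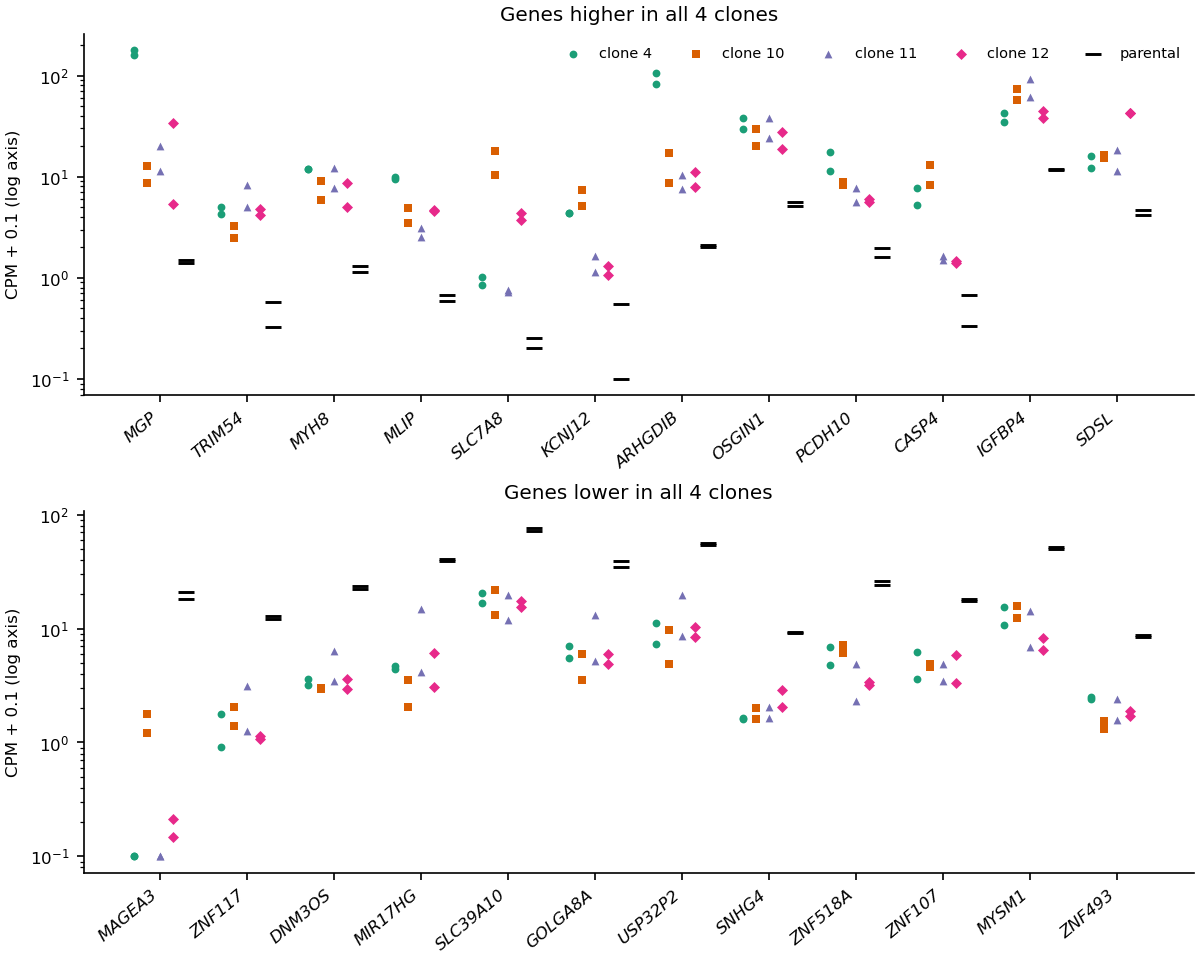
Each symbol is a library, in TMM-scaled CPM plus 0.1 on a log axis, for the 12 genes higher and the 12 genes lower in all 4 clones with the largest smallest change; clones stand left of the parental bars. Clone libraries lie on 1 side of both parental libraries for each of the 24 genes, which this choice by size favours, and MGP and ARHGDIB stand highest in clone 4.

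Among the 12 leading decreases was MAGEA3, a cancer-testis antigen of chromosome X. It had 0 counts in both libraries of clone 4 and of clone 11, 26 and 32 counts for clone 10, 2 and 1 for clone 12, against 471 and 619 in parental cells. In clone 10 the change was -3.82 on the log2 scale, and where a clone had 0 counts no fold change is given. MAGEA3 is nearly identical to other MAGE genes, so reads may have been split or dropped between them. Of 10 measured MAGE genes it was the 1 that was shared lower (10%, near the 9.5% of all genes). By the average 6 of the 10 passed downward and 3 upward, where 27.2% and 28.8% of all genes passed. The median of the list was -1.38 on the log2 scale, and -1.3 after correction.

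Transcripts that host small RNAs were among the leading decreases. They were grouped after their values were seen, and host transcripts were not counted as a list. Transcript GC content was 37.7% for MIR17HG, 37.6% for DNM3OS and 50.4% for SNHG4. In the lowest GC bin (29.6% to 40.3%) 38.8% of genes were shared lower. MIR17HG, which carries the miR-17-92 cluster, had 4.61 and 4.29 CPM for clone 4, 3.45 and 1.93 for clone 10, 14.9 and 4.08 for clone 11, 6.05 and 2.96 for clone 12, against 38.9 and 40.8 in parental cells. It fell by 3.06 ± 0.31 on the log2 scale (edgeR adjusted p = 4.21e-05) and by 2.23 after correction. DNM3OS, which carries miR-199a-2 and miR-214, had 3.11 and 3.54 CPM for clone 4, 2.91 and 2.82 for clone 10, 6.31 and 3.34 for clone 11, 3.48 and 2.86 for clone 12, against 23.4 and 22.3 in parental cells. It fell by 2.71 ± 0.17 (edgeR adjusted p = 6.29e-06) and by 1.97 after correction. SNHG4, a snoRNA host, fell by 2.33 ± 0.17 on the log2 scale (edgeR adjusted p = 1.19e-05).

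Mature miRNAs of both hosts are printed to show which regulators the 2 transcripts encode; the mature forms were not measured. Capitals mark the seed, bases 2 to 8, and sequences are from RefSeq (GRCh38.p14).
miR-17-5p: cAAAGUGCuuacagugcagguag
miR-20a-5p: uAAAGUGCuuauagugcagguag
miR-18a-5p: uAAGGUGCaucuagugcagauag
miR-19a-3p: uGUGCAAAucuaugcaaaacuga
miR-19b-3p: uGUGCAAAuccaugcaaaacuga
miR-92a-3p: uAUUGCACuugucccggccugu
miR-199a-5p: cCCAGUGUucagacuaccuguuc
miR-214-3p: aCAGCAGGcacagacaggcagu
The 8 miRNAs hold 6 different seeds, with miR-17-5p and miR-20a-5p sharing 1 and miR-19a-3p and miR-19b-3p sharing another.

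Promoter GC content did not separate the sets as transcript GC content did. The median over promoter windows was 67.0% for 960 shared higher genes, 63.3% for 1055 shared lower genes and 64.7% for 10944 tested genes. MIR17HG (chr13:91347437-91347736, plus strand), which was lower, and MYH8 (chr17:10421901-10422200, minus strand), which was higher, are shown as opposite examples, with CG dinucleotides in capitals.
MIR17HG: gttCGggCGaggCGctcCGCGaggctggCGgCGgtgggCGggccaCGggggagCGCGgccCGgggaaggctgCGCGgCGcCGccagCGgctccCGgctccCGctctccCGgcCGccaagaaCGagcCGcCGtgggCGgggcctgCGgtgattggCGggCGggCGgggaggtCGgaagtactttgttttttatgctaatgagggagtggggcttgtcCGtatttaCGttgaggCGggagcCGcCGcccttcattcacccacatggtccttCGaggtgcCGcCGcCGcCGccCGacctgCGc
MYH8: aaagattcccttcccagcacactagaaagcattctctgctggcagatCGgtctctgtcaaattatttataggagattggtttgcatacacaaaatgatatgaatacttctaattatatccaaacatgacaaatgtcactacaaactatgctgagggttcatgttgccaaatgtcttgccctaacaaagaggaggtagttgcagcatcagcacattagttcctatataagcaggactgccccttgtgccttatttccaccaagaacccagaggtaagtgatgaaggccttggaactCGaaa
The MIR17HG window has 42 CG dinucleotides and 73.0% GC, and the MYH8 window 2 and 41.3%. The median tested gene had 25 CG dinucleotides in its window.

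Genes named ZNF, most of which encode zinc finger DNA-binding proteins, were a large family among the shared decreases. Of 484 tested, 169 were shared lower (34.9%) and 23 shared higher (4.75%), against 9.5% and 8.4% of all genes, and their median change was -0.70 on the log2 scale. Their median GC content was 46.7%, below that of all genes. After correction 110 were shared lower and 5 higher, against 4.55% and 3.37% of all genes in that fit. Their corrected median was -0.48, against 0.02 over all genes. This family was chosen after its values were seen. ZNF117, ZNF518A, ZNF107 and ZNF493 are among the 12 leading decreases.

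ZNF117 had 1.66 and 0.804 CPM for clone 4, 1.94 and 1.30 for clone 10, 3.03 and 1.17 for clone 11, 1.03 and 0.969 for clone 12, against 12.1 and 12.7 in parental cells. It fell by 3.09 ± 0.26 on the log2 scale (edgeR adjusted p = 1.79e-05) and by 2.05 after correction. ZNF107 fell by 1.98 ± 0.21 (edgeR adjusted p = 4.64e-05) and by 1.01 after correction, with 3.25 to 6.12 CPM over the clone libraries against 17.5 and 18.1 in parental cells.

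**Figure D4:**
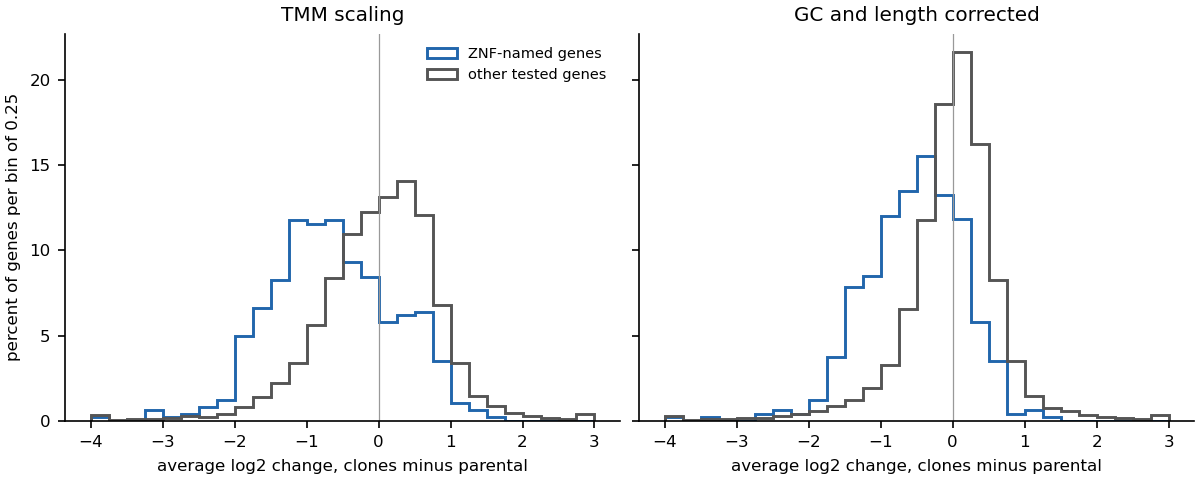
Histograms show the percent of ZNF-named genes (blue) and of the other tested genes (grey) per bin of average log2 change, clones minus parental, with values beyond -4 or 3 placed in the end bins. The ZNF-named genes are shifted left before correction (median -0.70) and after it (median -0.48).

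Chromosome 19, where many zinc finger genes lie in clusters, held 238 of the ZNF-named genes tested, of which 109 were shared lower. Over its 1002 tested genes the median change was 0.23 before correction and -0.20 after it, with corrected medians of -0.18, -0.27, -0.18 and -0.21 in clones 4, 10, 11 and 12. The 2 longest runs of neighbouring tested genes that were all shared in 1 direction were both on chromosome 19. The first held 11 genes, from ZNF430 to ZNF492, and the second 9, from ZNF14 to ZNF626. In the first run ZNF43 had 3.89 to 7.43 CPM over the clone libraries, against 22.3 and 21.7 in parental cells. A run of 8 on chromosome 10 went from ZNF248 to ZNF33B. After correction the first run remained as 2 runs, of 4 genes from ZNF430 to ZNF708 and of 5 from ZNF493 to ZNF257, and the run of 9 as 1 of 5 from ZNF93 to ZNF737. On chromosome 10 no run of 3 or more remained, and ZNF25, ZNF33A and HSD17B7P2 were not shared after correction. Cluster members resemble each other in sequence, so reads may be shared between them.

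Some chromosomes of high and low GC content differed in their shares. Of the tested genes on chromosome 16, whose median GC content was 57.3%, 21.3% were shared higher and 4.26% lower, and on chromosome 17, at 55.7%, 17.7% and 3.83%. On chromosome 13, at 43.4%, 1.26% were shared higher and 23.1% lower. Chromosome 19, at 59.5%, did not follow this, with 11.5% of its tested genes shared higher and 12.3% lower. The corrected medians of chromosomes 16, 17 and 13 were 0.13, 0.10 and -0.17 on the log2 scale. That of chromosome 13 was -0.48 in clone 10 and -0.03 in clone 11.

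The remaining decreases led by size include SLC39A10, a zinc importer, which had 11.9 to 21.7 CPM over the clone libraries against 72.2 and 76.8 in parental cells and fell by 2.13 ± 0.18 (log2, SE; edgeR adjusted p = 1.80e-05). MYSM1, a histone H2A deubiquitinase, had 6.4 to 15.8 CPM in the clones against 49.6 and 52.1 in parental cells. GOLGA8A, a golgin family member, and USP32P2, a pseudogene, fell by 2.59 ± 0.24 and 2.52 ± 0.25 on the log2 scale (edgeR adjusted p = 2.91e-05 and 3.45e-05), and both have near-identical copies. Among 238 transcribed pseudogenes 46 were shared lower (19.3%, against 9.5% of all genes) and 7 higher (2.94%, against 8.4%), with a median of -0.45. Among 316 long non-coding RNA genes 29 were lower (9.18%, near that of all genes) and 5 higher (1.58%), with a median of -0.30.

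A few genes were at or near 0 in every clone while the parental cells expressed them. COL4A5, a collagen IV chain encoded on chromosome X, had 0 counts in all 8 clone libraries against 261 and 313 in parental cells, which puts it at least 67-fold lower in the clones (floor of 3 counts per library). VSTM2L had 6 counts in all over the clones, at most 2 per library, against 205 and 228. FABP7, a fatty acid binding protein of neural precursors, had at most 2 counts per clone library against 120 and 133. CYBA and LOC400643 had at most 1 and 3 counts per clone library, against 25 and 50 and against 26 and 22. These 5 genes were picked after their values were seen. The reverse pattern, at least 10 counts in every clone library and at most 2 counts summed over the parental libraries, was held by 0 genes.

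Genes of cell division were mixed. Of 24 G2/M genes 9 were shared lower (37.5%, against 9.5% of all genes) and 1 higher (4.17%, against 8.4%). Their median change was -0.26 on the log2 scale and their median GC content 44.9%. After correction 1 was shared lower, against 4.55% of all genes in that fit. CENPE, a kinetochore motor, had 19.2 and 17.5 CPM for clone 4, 29.8 and 48.7 for clone 10, 22.2 and 19.6 for clone 11, 14 and 36.5 for clone 12, against 96.5 and 97.4 in parental cells. It fell by 1.96 ± 0.24 (log2, SE; edgeR adjusted p = 9.61e-05). NUSAP1, a spindle protein, fell by 1.04 ± 0.12 (edgeR adjusted p = 7.84e-05) and stayed shared after correction at -0.81, whereas KIF11 and HMMR did not. Of 24 S phase genes 4 were shared higher (16.7%) and 2 lower (8.33%). The helicase subunits MCM2 and MCM7 rose by 0.89 ± 0.12 and 0.68 ± 0.10, and CCNE2, a cyclin E, and RFC3, a clamp loader subunit, fell by 1.38 ± 0.14 and 0.99 ± 0.11 (log2, SE). CCNE2 and RFC3 stayed shared after correction, and MCM2 and MCM7 did not.

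Of 21 cyclins, cyclin-dependent kinases and their inhibitors, 3 were shared higher (14.3%, against 8.4% of all genes) and 2 lower (9.52%, against 9.5%). CDKN1A, the p21 inhibitor that p53 induces, had 323 and 420 CPM for clone 4, 233 and 321 for clone 10, 139 and 262 for clone 11, 273 and 283 for clone 12, against 124 and 127 in parental cells. MDM2, the ubiquitin ligase of p53, had 28.2 to 43.9 CPM over the clone libraries against 74.3 and 73.7, fell by 1.06 ± 0.11 (log2, SE; edgeR adjusted p = 4.70e-05) and stayed shared after correction. The p53-responsive list as a whole had 2 of 20 shared higher (10%) and 1 lower (5%), with a median of 0.26 that became 0.02 after correction. RB1, the retinoblastoma gene, had 18.2 to 45.9 CPM in the clones against 61.0 and 64.0, and CDKN2A 234 to 403 CPM against 165 and 156. CDKN1A (0.67 after correction on the log2 scale, with clone 11 at 0.10), RB1 (-0.37) and CDKN2A (0.50) were not shared after correction.

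Lists of energy and protein production genes are read against the 8.4% of all genes shared higher and 9.5% lower. In the corrected fit these shares were 3.37% and 4.55%. Of 41 nuclear-encoded respiratory chain genes 6 were shared higher (14.6%) and 0 lower, with a median of 0.52 on the log2 scale. After correction 4 were shared higher, with NDUFA4 and NDUFS1 newly so, and the median was 0.27. UQCRC1, a complex III core subunit, had 230 to 369 CPM in the clones against 132 and 135 in parental cells, and SDHA, a complex II subunit, had 74.0 to 113 CPM against 52.2 and 52.0; both stayed shared after correction. Of 78 mitochondrial ribosomal protein genes 12 were shared higher (15.4%) and 2 lower (2.56%), and 5 and 0 after correction. Of 23 ribosome biogenesis and MYC-responsive genes 4 were shared higher (17.4%) and 0 lower, led by BOP1 at 1.2 ± 0.12 (log2, SE). None of these 4 stayed shared after correction, where WDR12, not shared before, was the 1 shared higher. Of 36 cytoplasmic ribosomal protein genes RPS24 was the 1 shared lower, at 599 to 1440 CPM in the clones against 2040 and 2090 in parental cells. The median of the ribosomal protein list was 0.15 with TMM scaling and -0.04 with library totals.

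In stress and metabolic lists the counts were small, and the shares over all genes were 8.4% higher and 9.5% lower. In the corrected fit those shares were 3.37% and 4.55%. Of 18 ATF4-responsive genes 3 were shared higher (16.7%), SLC3A2, ATF5 and STC2, with a list median of 0.60, and SLC3A2, the heavy chain of amino acid transporters, stayed shared after correction. Heat shock genes had 2 of 14 shared higher (14.3%), HSP90AB1 and HSPA8, and 4 after correction. Of 19 cholesterol synthesis genes 3 were shared higher (15.8%), PMVK and MVD among them, and 2 lower (10.5%), INSIG1, which holds back sterol regulation, and IDI1. PMVK and INSIG1 stayed shared after correction, while MVD (0.78 before and 0.21 after, log2) and IDI1 (-1.07 and -0.67) did not. Of 21 hypoxia-responsive genes 2 were shared higher and 2 lower (9.52% each, near the shares of all genes). The glycolytic enzymes ALDOA and ENO1 were the higher ones and BNIP3L and P4HA1 the lower. P4HA1 was at -0.68 before correction and 0.00 after it, and BNIP3L was the 1 of these 4 that stayed shared. Of 17 Notch pathway genes 2 were shared lower (11.8%) and 0 higher, and by the average 2 passed in each direction. The list's median was 0.13 before correction and -0.32 after it. RBPJ, the DNA-binding factor of Notch signalling, had 62.8 to 86.5 CPM in the clones against 186 and 185 in parental cells. NRARP, a Notch target, fell by 1.89 ± 0.33 (log2, SE; edgeR adjusted p = 0.000709). It had only 2 to 16 counts per clone library, against 43 and 46 in parental cells. Both genes stayed shared after correction. Of 21 interferon-stimulated genes TAP1 was shared higher and IFITM1 lower (4.76% each, below the shares of all genes). Of these IFITM1 stayed shared after correction. TEK, the angiopoietin receptor, was the 1 shared gene of 7 endothelial markers, at 0.268 to 0.678 CPM against 3.37 and 2.93.

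Several lists had 0 shared genes in either direction: HOX genes (27 measured), extracellular matrix and fibroblast genes (23), ERK feedback and immediate-early genes (22) and YAP/TEAD-responsive genes (15). By the average alone, extracellular matrix genes passed upward for 13 of 23, where 28.8% of all genes passed, and HOX genes downward for 8 of 27, where 27.2% passed. After correction HOXA3 and HOXB3 were shared lower, which is 2 of 27, against 4.55% of all genes in that fit. Of 11 replication-dependent histone mRNAs 3 were shared higher (27.3%, against 8.4% of all genes), HIST1H2BK, HIST1H1C and HIST1H2AC, and 2 stayed so after correction. Most such transcripts lack a poly(A) tail, and their capture depends on how the library was made. Epithelial markers summed to 6.39 to 160 CPM in the clones and 13.7 to 14.3 CPM in parental cells, mostly from KRT8 and KRT18 in clones 4 and 10, and CDH1 was at 0.107 CPM or less. Endothelial markers summed to 6.64 to 27.9 CPM in the clones and 11.8 to 13.5 CPM in parental cells. Their part in the shared changes was not tested.

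**Figure D5:**
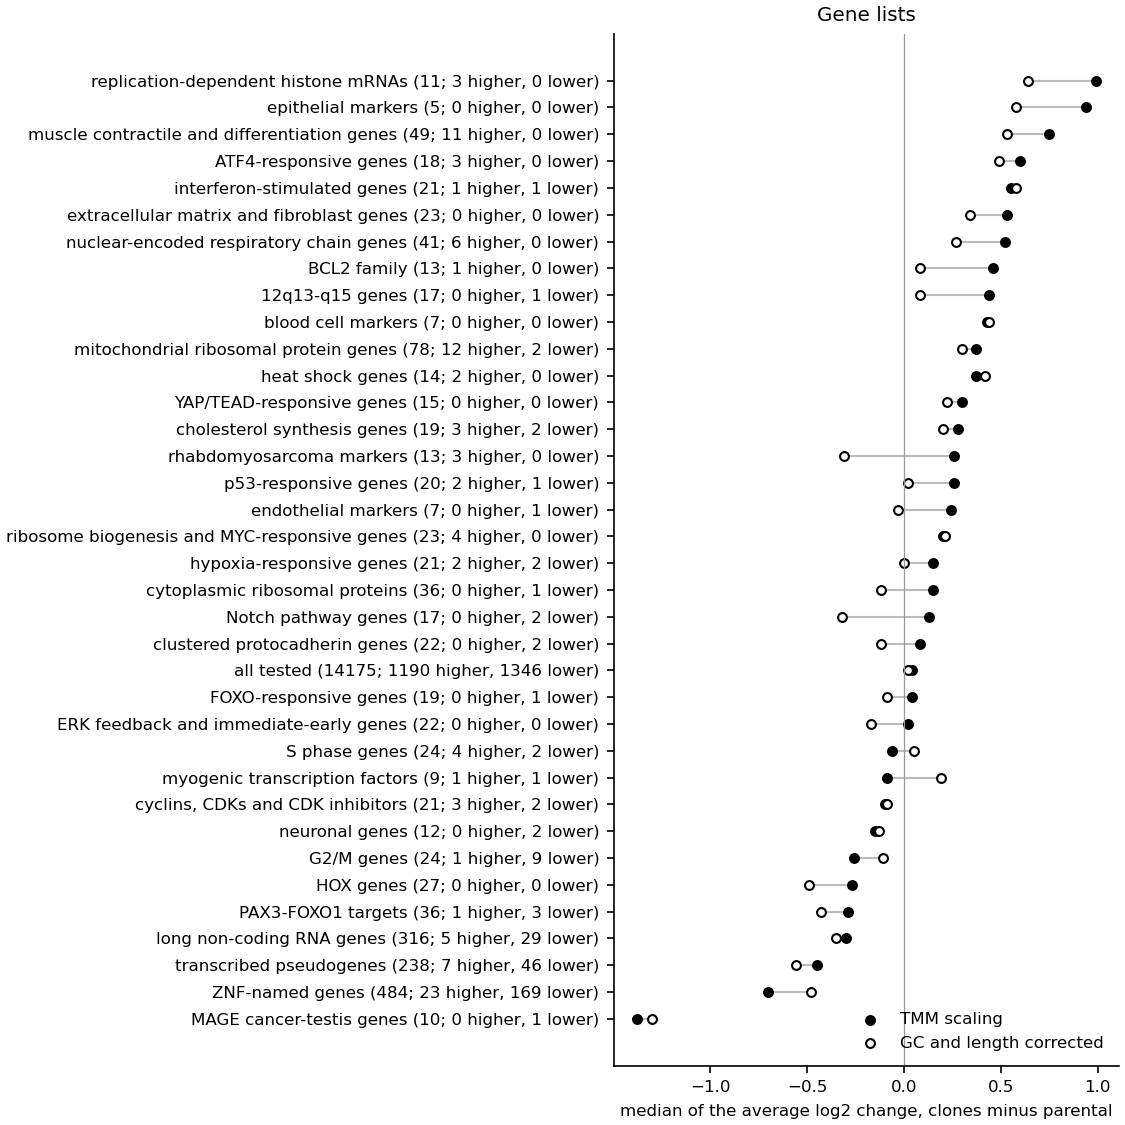
Each row is a gene list with the number of genes measured and the numbers shared by all 4 clones, ordered by the median average log2 change, clones minus parental; filled points use TMM scaling and open points the GC and length correction. Muscle genes stay to the right of 0 (0.75 and 0.53) and ZNF-named genes to the left (-0.70 and -0.48), and the rhabdomyosarcoma markers move from 0.26 to -0.31.

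A shared direction did not mean an equal size. The clones differed among themselves for 9006 of 14175 genes (63.5%; edgeR, adjusted p under 0.05), for 605 of the 1190 shared higher genes (50.8%) and for 501 of the 1346 shared lower genes (37.2%). Clone 11 had the largest change of the 4 clones for 421 shared higher genes, clone 12 for 289, clone 10 for 271 and clone 4 for 209. Clone 12 had the largest change for 397 shared lower genes, clone 10 for 353, clone 11 for 302 and clone 4 for 294. The median change of the shared higher genes was 0.79, 0.81, 0.94 and 0.84 in clones 4, 10, 11 and 12 on the log2 scale, and that of the shared lower genes -1.12, -1.13, -1.09 and -1.23.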

How the data were processed

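Counts in the clone table are raw reads per gene as deposited by the authors, 1 column for each library. Trimmomatic 0.32, Bowtie2, Cuffdiff 2.1.1 and the build hg19 appear in the submitters' processing notes, with no counting tool, strand setting or annotation. Estimated counts make up the time-course tables, deposited by the authors with replicates pooled into 1 column for each condition. The members and gene lists were chosen with earlier results of these data known.

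Clone counts were fitted with edgeR 4.0.16 (R 4.3.3): 5 group means over 10 libraries, TMM scaling, filterByExpr with a minimum count of 10, quasi-likelihood F tests with 5 residual degrees of freedom, and Benjamini-Hochberg adjustment over all genes tested. CPM values are TMM-scaled. The script was tested on simulated data. Library totals were 17746684 to 26834005 counts, and 3 counts, taken as the floor, correspond to 0.101 to 0.185 CPM, for counting error only. The GC and length correction used a natural spline with 6 degrees of freedom per library as offsets. GC content and length are medians over a gene's GENCODE v29 transcripts, matched by symbol for 21583 of 23261 genes (92.8%) and 13532 of those tested (95.5%). That build is GRCh38, not hg19. Gene order came from RefSeq records, and promoter and miRNA sequences from RefSeq (GRCh38.p14).

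Named genes are PAX3, FOXO1 and FKBP1A, the 12 shared genes each way with the largest smallest clone change and a mean normalised count of at least 50, up to 4 shared members per list by lowest p, and members of the 3 longest runs of neighbours. LOC, antisense, read-through, open reading frame, histone and ribosomal protein names were left out of the 12. Time-course changes use TMM-normalised counts with a prior count of 2, a mean of at least 50 and a rule of size of 2-fold, with no test, since each condition has 1 pooled column; this replaced the planned count test. Genes listed at 0 in a column with 10 or more elsewhere were left out.

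Chi-square per degree of freedom between the libraries of a group was 1.84 in parental cells and 14.0 to 51.3 in the clones. Alternatives tried were library totals, DESeq2 size factors, DESeq2 1.42.0, other low-count filters, GC correction alone, a replicate block, the 8 clone libraries as 1 group, and leaving out each library or clone.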

Additional observations from a re-analysis of the deposited data

Results flagged for a closer look

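The 4 clones differed from each other in the size of their change (edgeR quasi-likelihood test over the clone means, adjusted p) for 13 of the 24 genes that led the shared changes. Higher in every clone, SLC7A8 (adjusted p = 5.05e-06) changed by 6.75 on the log2 scale in clone 10 and by 2.31 in clone 11, and ARHGDIB (9.35e-06) by 5.57 in clone 4 and by 2.15 in clone 11. CASP4 (9.36e-05) changed by 4.72 in clone 10 and 1.74 in clone 12. The adjusted p was 0.000224 for SDSL, 0.000359 for MGP, 0.000418 for MLIP, 0.00284 for PCDH10, 0.00392 for IGFBP4, 0.00396 for KCNJ12 and 0.0293 for TRIM54.

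Lower in every clone, MAGEA3 (adjusted p = 0.000115) had 26 and 32 counts in clone 10 and 0 in both libraries of clones 4 and 11. ZNF518A (0.0299) changed by -1.94 in clone 10 and -2.79 in clone 11, and MIR17HG (0.037) by -3.87 in clone 10 and -2.04 in clone 11. Over all genes tested the clones differed for 63.5%.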

How the results depend on the processing

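Library totals left 594 genes shared upward. The GC and length correction left 456 upward and 616 downward, and 2097 and 2157 for the average with 1 sign in all clones. Correction for GC content alone gave 408 and 590 shared, 2051 and 2120 for the average with 1 sign, and 2687 upward for the average. With the 8 clone libraries as 1 group the average passed for 1364 upward and 1578 downward, and with 1 sign for 1363 and 1578. The size rule of 2-fold in every clone left 129 and 465. With 1.5-fold in place of 2-fold, 10% of the shared higher and 7.88% of the shared lower genes passed in the time course at 72 h. The share of all genes at 1.5-fold is not given here, so these values have no baseline.

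Leaving out 1 library or 1 clone, the shared count ranged from 422 to 1825 upward and 665 to 2029 downward, lowest without the second parental library and highest without clone 4 (upward) and clone 11 (downward), where 3 clones had to pass. The average ranged from 2199 to 4440 upward and 2481 to 4551 downward, the average with 1 sign from 2039 to 3831 and 2303 to 3791, and the differences among clones from 6732 to 9803. Where a group keeps 1 library, its spread is taken to be that of the other groups.

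Equal replicate numbers were not taken as pairs, since the correlation did not exceed 0.1 for every pair of groups: differences between replicates 2 and 1 correlated at 0.00869 to 0.0237 between parental cells and clones and at 0.147 to 0.364 among clones 4, 10 and 11. Clone 12 carries other numbers and was not compared. With the replicate block (4 residual degrees of freedom) 1380 genes were shared upward and 1519 downward. For the average change of the 24 leading genes over 23 settings, 549 of 552 values kept their call and 0 turned round. The 3 that lost it were MGP, SLC7A8 and ARHGDIB, with the 8 clone libraries as 1 group. This tally does not cover the shared call, which KCNJ12 lost after the GC and length correction. The 24 genes were picked for large changes in these same libraries, which favours a kept call. The tally therefore says nothing of the shared genes at large. FKBP1A, near 0 throughout, turned below 0 with library totals (-0.16), DESeq2 size factors (-0.01), DESeq2 (-0.01), no filter (-0.04), a mean count of 50 (-0.03) and the GC and length correction (-0.03), and lay between -0.08 and 0.11 with libraries or clones left out. PAX3 lay between -0.3 and 0.01 with libraries or clones left out, and at -0.35 with the GC and length correction. The causes were not tested. Depth limits genes near 0, where 3 counts is the floor.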
